A study of Mus musculus with 2 samples.

Results

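Interleukins are secreted signals between cells of the immune system, and each acts through a receptor built from 1 or more subunits in the cell membrane. Most receptor subunits have no enzyme activity of their own and signal through Jak kinases, which phosphorylate Stat transcription factors. Developing thymocytes depend on IL-7, and activated T cells use IL-2 and IL-12. The genes described here are the 78 protein-coding genes on mouse autosomes whose RefSeq symbol begins with Il and a number, out of 20665 autosomal protein-coding genes. Of these, 37 encode ligands, 35 encode receptor subunits, 2 encode receptor antagonists (Il1rn and Il1f5), 2 encode soluble binding proteins (Il18bp and Il22ra2) and 2 encode amino acid oxidases (Il4i1 and Il4i1b). The rule uses the symbol, the biotype and the chromosome, and no measured value enters it.

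Binding was read from 1 Myc-Tag chromatin immunoprecipitation sequencing (ChIP-seq) library of a Lck-Dlx5 T-cell lymphoma, with 1 input library and no replicate of either. Both come from mice that carry a transgene of Myc-Tag Dlx5, a homeobox transcription factor, behind the Lck promoter, which is active in thymocytes. The labels name a primary tumor for both libraries, on strain C57BL/6 for the ChIP and C57BL/7 for the input, whereas the methods name 1 lymphoma cell line with an IgG control. The animal's age is not given in the sources used here. The library held 3477 called intervals with a median summit height of 16 (25th to 75th percentile 13 to 19, range 9 to 301), and the input held 28 intervals, all of them also called with the antibody. The height is a score deposited as a whole number without a stated scale, and the depth behind it is unknown. Of the T cell marker genes, 4 of 9 had an interval in the gene or a 10 kb flank, against 2 of 5 for B cells, 1 of 5 for myeloid cells and 0 of 3 for erythroid cells. The share of all autosomal protein-coding genes by this rule was 20.1%. Whether Cd3d and Cd3g, each with 2 intervals and a tallest height of 15, share them was not examined. Intervals do not measure expression, so these counts do not check the cell type.

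At 3 members an interval overlapped the 250 bases before a listed start, and these windows are shown first. At Il3ra and Il4i1b the overlap was only partial. The sequences are those of RefSeq on GRCm38.p6, written 5′ to 3′ on the strand of the gene. Capitals mark CG dinucleotides and the letters TAATT or AATTA, the 2 strands of the motif that the study describes for the Dlx family. Il6st encodes gp130, the signaling subunit shared by receptors of the IL-6 family, Il3ra encodes the IL-3 binding subunit, and Il4i1b encodes an amino acid oxidase. The Il6st window is chr13:112463820-112464069 (+ strand), the Il3ra window chr14:14346245-14346494 (+) and the Il4i1b window chr7:44816120-44816369 (+).
Il6st: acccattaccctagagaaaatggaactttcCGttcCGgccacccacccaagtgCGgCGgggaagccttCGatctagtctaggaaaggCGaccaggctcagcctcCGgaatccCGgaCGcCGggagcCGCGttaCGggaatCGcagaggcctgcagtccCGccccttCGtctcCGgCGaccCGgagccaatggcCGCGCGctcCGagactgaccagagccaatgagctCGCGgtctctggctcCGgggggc
Il3ra: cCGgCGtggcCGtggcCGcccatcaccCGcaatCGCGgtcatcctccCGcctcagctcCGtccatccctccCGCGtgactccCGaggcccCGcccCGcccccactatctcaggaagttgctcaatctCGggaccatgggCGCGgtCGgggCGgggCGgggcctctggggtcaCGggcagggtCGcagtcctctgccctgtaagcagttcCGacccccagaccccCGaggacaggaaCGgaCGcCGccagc
Il4i1b: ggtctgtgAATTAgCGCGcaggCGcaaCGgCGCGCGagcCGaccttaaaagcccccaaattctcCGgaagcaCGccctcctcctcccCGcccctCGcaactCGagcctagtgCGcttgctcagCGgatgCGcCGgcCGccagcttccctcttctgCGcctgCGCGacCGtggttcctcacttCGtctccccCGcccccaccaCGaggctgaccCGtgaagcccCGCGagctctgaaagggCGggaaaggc

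The next 3 windows are those of Ckap2l, Pan2 and Il2ra. Ckap2l and Pan2 are the neighbours of the ligands Il1a and Il23a, and the intervals counted for these ligands covered both windows in full. Il2ra is a receptor whose interval lay upstream of its start and did not overlap its window. Ckap2l encodes a protein of the mitotic spindle and Pan2 a subunit of an mRNA deadenylase. Il2ra encodes CD25, the alpha subunit of the high-affinity IL-2 receptor. The windows are chr2:129297213-129297462 (- strand) for Ckap2l, chr10:128303085-128303334 (+) for Pan2 and chr2:11642542-11642791 (+) for Il2ra.
Ckap2l: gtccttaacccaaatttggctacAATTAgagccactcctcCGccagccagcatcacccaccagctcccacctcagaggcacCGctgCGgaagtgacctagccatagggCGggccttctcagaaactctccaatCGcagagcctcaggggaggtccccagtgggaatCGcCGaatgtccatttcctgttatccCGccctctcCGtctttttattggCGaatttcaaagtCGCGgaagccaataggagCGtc
Pan2: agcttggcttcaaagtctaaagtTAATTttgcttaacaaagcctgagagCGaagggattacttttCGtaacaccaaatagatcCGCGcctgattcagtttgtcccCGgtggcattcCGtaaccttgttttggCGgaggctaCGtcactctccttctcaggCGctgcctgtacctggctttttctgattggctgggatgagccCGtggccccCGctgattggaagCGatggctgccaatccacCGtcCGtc
Il2ra: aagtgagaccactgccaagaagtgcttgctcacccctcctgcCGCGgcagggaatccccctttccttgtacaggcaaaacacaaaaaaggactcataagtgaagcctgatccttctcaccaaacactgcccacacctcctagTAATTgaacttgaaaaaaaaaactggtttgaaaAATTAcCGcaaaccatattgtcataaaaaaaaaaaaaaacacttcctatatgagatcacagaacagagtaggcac

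The windows overlapped by an interval at Il6st, Il3ra and Il4i1b held 26, 27 and 29 CG dinucleotides. Those of Ckap2l and Pan2, which an interval also overlapped, held 13 and 14. The Il2ra window, which no interval overlapped, held 3. TAATT or AATTA stood 2 times in the Il2ra window, 1 time each in those of Il4i1b, Ckap2l and Pan2, and not at all in those of Il6st and Il3ra. In the Il4i1b window the letters stood outside the part that the interval overlapped. A match of these letters is a description of the window and not a binding site, and the absence of a match says only that the letters are not in these 250 bases.

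A gene was counted when at least 1 bp of an interval fell in its body or in a flank of 10 kb. By this rule 10 of the 78 genes (12.8%, 95% Wilson interval 7.12 to 22.0%) had a Myc-Tag interval. Among all autosomal protein-coding genes the share was 20.1% (4147 of 20665). The 10 genes were the receptors Il2ra, Il3ra, Il6ra, Il6st, Il10rb, Il12rb1 and Il12rb2, the ligands Il1a and Il23a, and Il4i1b. The receptors stood at 7 of 35 (20%, 10 to 35.9%), next to the share of all genes. The ligands stood at 2 of 37 (5.41%, 1.5 to 17.7%), and the Wilson interval of the ligands lay below the 20.1% of all genes but overlapped that of the receptors. The antagonists and the binding proteins had none. These intervals cover counting error only, genes are not replicates, and the difference between ligands and receptors was not tested.

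**Figure D1:**
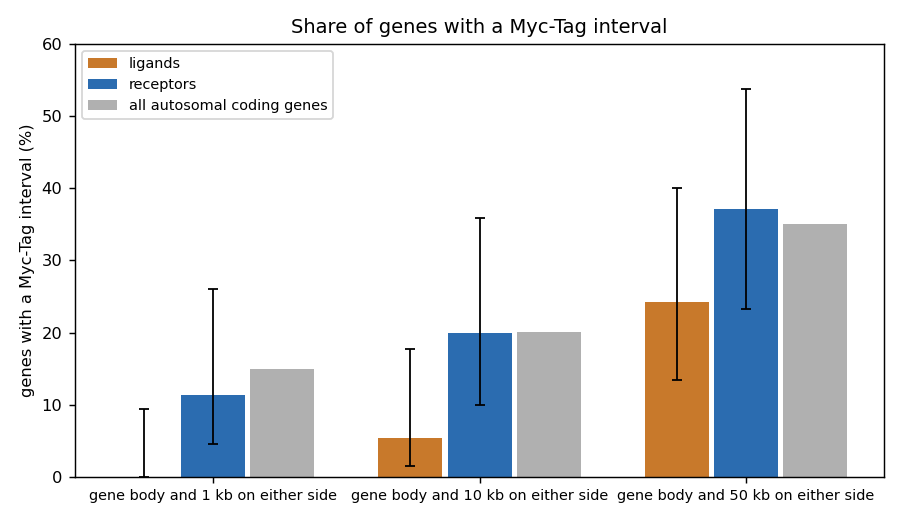
Percentage of genes with a Myc-Tag interval (vertical axis) among 37 interleukin ligands, 35 receptors and 20665 autosomal coding genes when 1, 10 or 50 kb are allowed on either side of the gene. Bars are shares and lines are 95% Wilson intervals. The ligands stand at 0, 5.41 and 24.3%, the receptors at 11.4, 20 and 37.1% and all genes at 15, 20.1 and 35.1%.

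Gene length differed between the roles, and the share of genes with an interval differed between classes of length. The median length was 6.60 kb for the ligands, 31.1 kb for the receptors and 17.5 kb for all autosomal coding genes. Among all genes shorter than 10 kb, 15.3% had an interval, against 22.7% of those from 10 to 30 kb, 23.7% of those from 30 to 100 kb and 20.6% of longer ones. Of the ligands, 25 were shorter than 10 kb and 1 of them, Il23a, had an interval, and 7 were from 10 to 30 kb long, of which 1, Il1a, had one, while the 4 from 30 to 100 kb and the 1 of 100 kb or more had none. The receptors with an interval were 1 of 2 below 10 kb, 2 of 15 from 10 to 30 kb, 4 of 17 from 30 to 100 kb and 0 of 1 of 100 kb or more. The part of length in the difference between ligands and receptors was not tested.

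A count that does not use the length of the gene body takes only summits at most 1 kb from either end. By this count 3 of the 78 genes (3.85%, 1.32 to 10.7%), Il6st, Il3ra and Il4i1b, had such a summit, whereas 11.3% of all autosomal coding genes did. The receptors were 2 of 35 (5.71%, 1.58 to 18.6%). The ligands were 0 of 37 (0%, Wilson interval up to 9.41%), and the limit of 3 counts that a count of 0 allows is a share of 8.11%. This share still differed between classes of length. Among all genes shorter than 10 kb, as 25 of the ligands were, 8.79% had such a summit. It was 13.5% from 10 to 30 kb, 13.7% from 30 to 100 kb and 8.78% for longer genes. The part of length in this count was not tested.

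Among the receptors, the summit at Il6st was 234 bp inside the gene, downstream of its start, in the interval chr13:112463464-112464653. Its height was 12, and 2829 of the 3477 summits were taller. The nearest other coding gene, Il31ra, was 57627 bp from the summit, so that no other coding gene lay close to this interval. At Il3ra the interval chr14:14345483-14346408 spanned the lower end of the gene, with the summit 104 bp inside the gene and 479 bp before the start given in the promoter table. The height was 13 and the nearest other coding gene, Olfr31, was 16950 bp away.

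Il6ra, the IL-6 binding subunit that pairs with gp130, had the tallest summit of all members, with a height of 20 that 650 summits (18.7%) exceeded. The interval, chr3:89872148-89872723, lay inside the gene, 3108 bp from the end with the lower coordinate. As Il6ra is on the - strand, this is the far end from its start, which was 40764 bp away. The interval also overlapped the noncoding gene Gm46811, and the nearest other coding gene was She at 13586 bp. The subunits Il6ra and Il6st of 1 receptor thus both had an interval, at the far end of Il6ra and at the start of Il6st.

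Il12rb2 encodes the signaling subunit of the IL-12 receptor, which is known for its role in T helper 1 cells, and was the only member with 2 intervals. The interval chr6:67318527-67318965 had a height of 17 and chr6:67347781-67348371 a height of 13. Both summits lay deep inside the gene, 57468 and 28092 bp downstream of the start, and Serbp1 was the nearest other coding gene, at 29418 and 58794 bp. These intervals were narrow, at 439 and 591 bp, against a median of 752 bp for the library. Exons were not used here, so that intron and exon were not separated.

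Il2ra and Il10rb had their intervals outside the gene, and were nonetheless the nearest coding genes to them. At Il2ra the interval chr2:11635296-11636660 had a height of 16, equal to the median of the library, and its summit lay 6653 bp upstream of the start. It was the widest of the members' intervals, at 1365 bp, and the nearest other coding gene, Rbm17, was 32940 bp away. Il10rb encodes a subunit shared by receptors of the IL-10 and IL-22 group. Its interval chr16:91433305-91434004, with a height of 15, lay 7798 bp beyond the upper end of the gene, and Ifnar2, an interferon receptor, was the nearest other coding gene at 28043 bp.

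At Il12rb1, which encodes the subunit shared by the receptors for IL-12 and IL-23, the interval belonged in position to a neighbour. The summit, with a height of 12, was 3512 bp outside Il12rb1 and inside Mast3, 200 bp from an end of that kinase gene. The interval was chr8:70804639-70805156. The receptor Il12rb1 was therefore counted by distance, although another gene lay closer.

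The same held for both ligands. Il1a encodes IL-1 alpha, an inflammatory cytokine, and its interval chr2:129297095-129297840 had a height of 14. The summit was 2201 bp outside Il1a, at the end away from its start, which was 12564 bp off, but it lay only 180 bp from the start side of Ckap2l. Il23a encodes the p19 subunit of IL-23. Its interval chr10:128302898-128303519 had a height of 12, with the summit 5036 bp outside Il23a and 213 bp from Pan2. At both, the interval overlapped the neighbour and did not overlap the ligand. When a member had also to be the nearest coding gene to the summit, 0 of 37 ligands remained (0%, Wilson interval up to 9.41%), 6 of 35 receptors (17.1%, 8.10 to 32.7%) and 7 of all 78 genes (8.97%, 4.42 to 17.4%). The share of all autosomal coding genes by this rule was 13.9%.

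The remaining member, Il4i1b, shares its start region with 2 other genes. The interval chr7:44816222-44816894 had a height of 18, and its summit was 78 bp downstream of the start of Il4i1b. The same position lay inside Nup62, which encodes a nuclear pore protein, and inside Atf5, which encodes a transcription factor. The nearest ends of these genes were 360 and 210 bp from the summit, so that the interval cannot be given to 1 of the 3 genes. Il4i1, which shares the end of the same locus, had its nearest summit at 19.8 kb and was not counted.

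**Figure D2:**
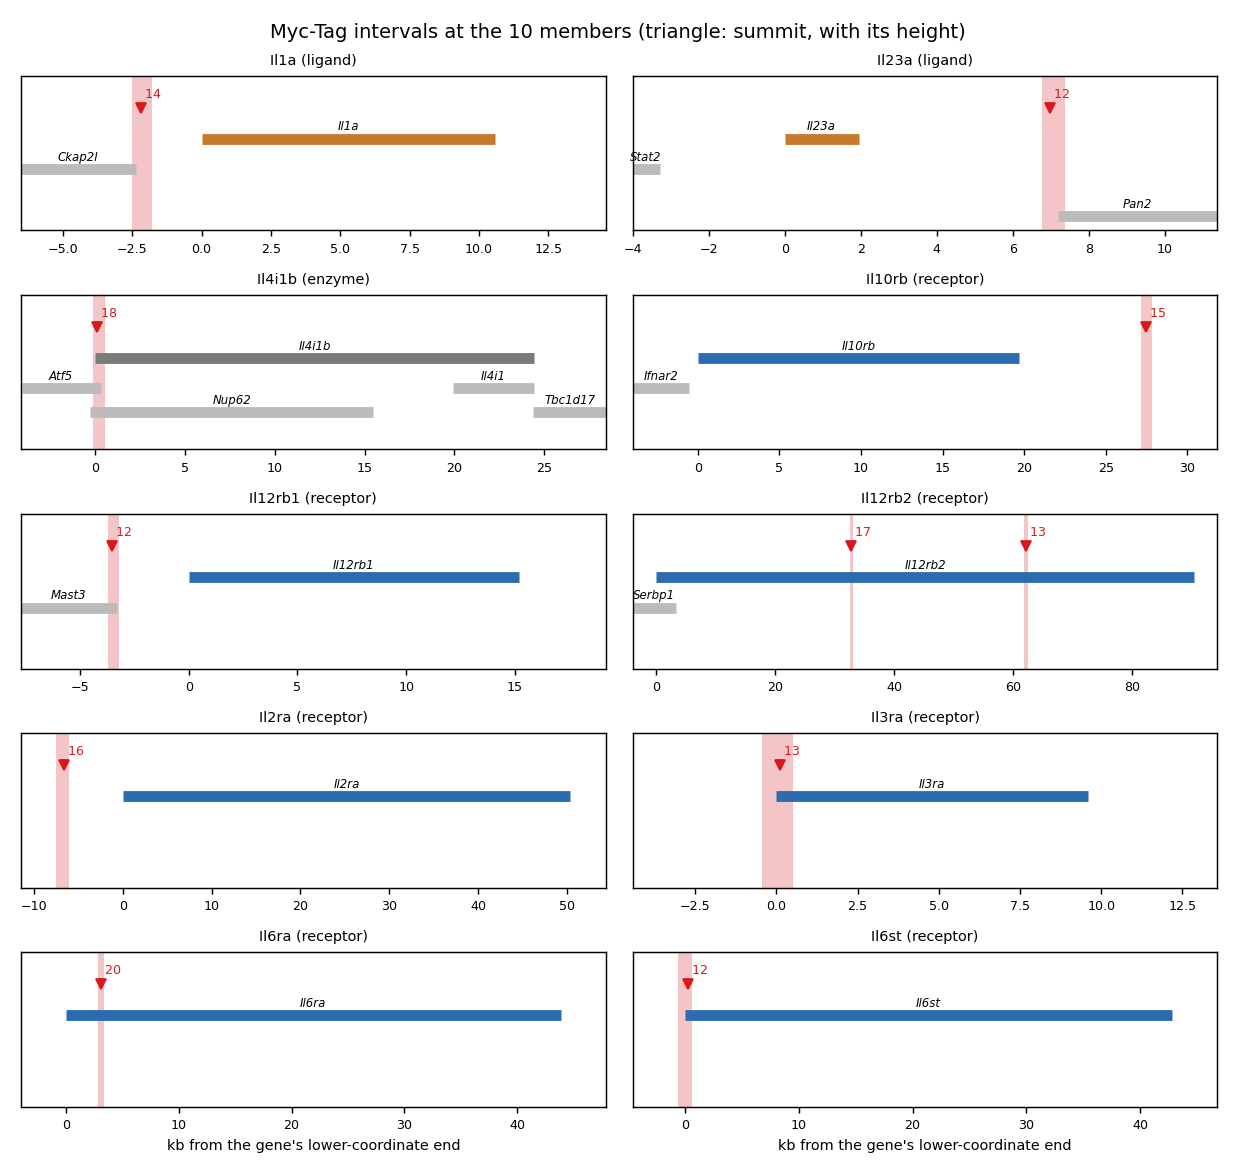
Maps of the 10 members with an interval, in kb from the lower-coordinate end of each member (horizontal axis). Coloured bars are the members, grey bars other coding genes, red bands the intervals and triangles the summits with their heights. The intervals at Il1a, Il23a and Il12rb1 overlap Ckap2l, Pan2 and Mast3 and not the member, while those at Il6ra, Il6st, Il3ra and Il12rb2 lie in or across the member.

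The 11 intervals at members had summit heights from 12 to 20, with a median of 14 against 16 for all summits. Of the 11, 3 were above the median of the library and 1, at Il6ra, was at or above its 75th percentile of 19. The input had no call at any of the 11, and only 28 of all 3477 intervals were also called in it. With 1 library, the heights have no replicate check, and the differences between members were not tested. The widths ranged from 439 to 1365 bp with a median of 673 bp. The summit lay inside the member for 6 intervals and outside for 5, and for 4 intervals it lay within 1 kb of an end of another coding gene.

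**Figure D3:**
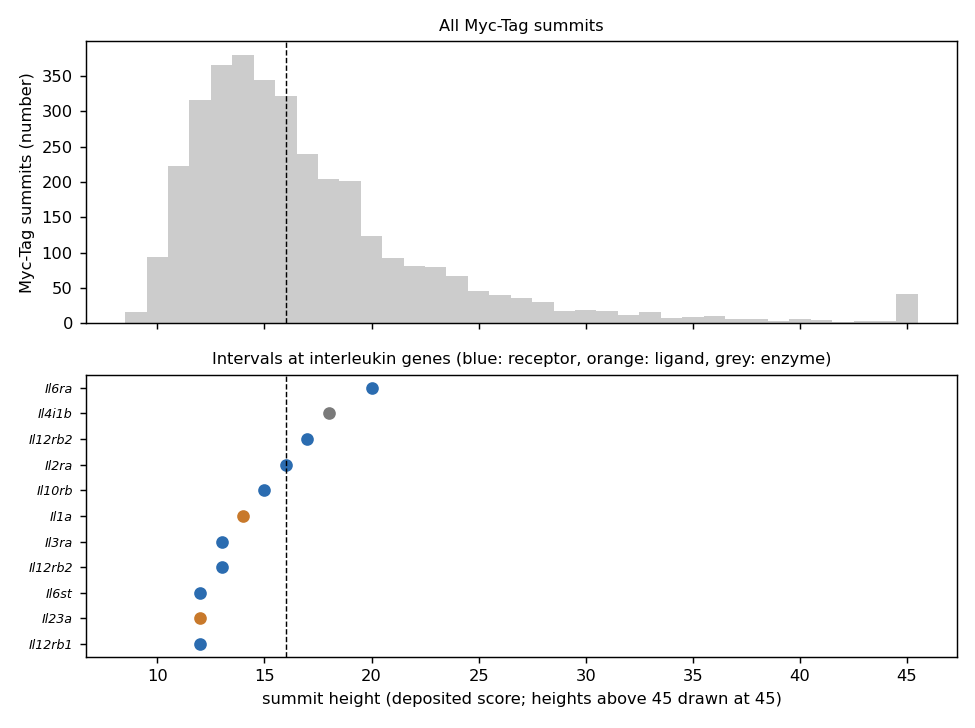
Upper panel, number of Myc-Tag summits (vertical axis) at each height in all 3477 intervals. Lower panel, the summit height (horizontal axis, deposited score) of each of the 11 intervals at members. The dashed line is the median of 16, and the members range from 12 to 20, with Il6ra the tallest.

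Receptors were also counted by family. The families follow textbook usage but were grouped after the values were seen, so the counts are a description, the differences between them were not tested, and the share of all genes was 20.1%. Of the 9 receptors of the IL-6 and IL-12 family, 4 had an interval, including Il12rb1, whose interval lay at Mast3. The family of the common gamma chain, which includes the receptors for IL-2, IL-4, IL-7, IL-9, IL-15 and IL-21, had 1 of 7, namely Il2ra. The IL-10 family had 1 of 5 and the family of the common beta chain 1 of 2. The 7 receptors of the IL-1 family and the 5 of the IL-17 family had none.

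A missing interval means only that no peak passed the threshold of the caller in this library. Il7r encodes the IL-7 receptor subunit on which developing T cells depend, and its nearest summit was 435 kb away. The nearest summit was 72.9 kb from Il2rb, the signaling subunit of the IL-2 and IL-15 receptors, 69.0 kb from Il15ra, 108 kb from Il4ra and 159 kb from Il21r. Both Il7r and Il2rb lie on chromosome 15, of which the study describes an extra copy in these lymphomas and on which 36.7% of coding genes had an interval.

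Among the ligands, the distance to the nearest summit was 549 kb for Il2, the T-cell growth factor, 88.6 kb for Il4, 345 kb for Il17a and 1711 kb for Il7, which stromal cells of the thymus produce. The members closest to being counted were Il27 at 11.8 kb, Il11 at 13.3 kb, Il12a and Il5 both at 13.5 kb, and the receptor Il17rb at 17.5 kb. In all, 14 members had their nearest summit between 10 and 50 kb away and 41 more than 100 kb away. The median distance of the 68 members without an interval was 158 kb, against 194 kb for the 16518 autosomal coding genes without one. Thus the members without an interval were, in the median, no farther from a summit than other genes without one.

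**Figure D4:**
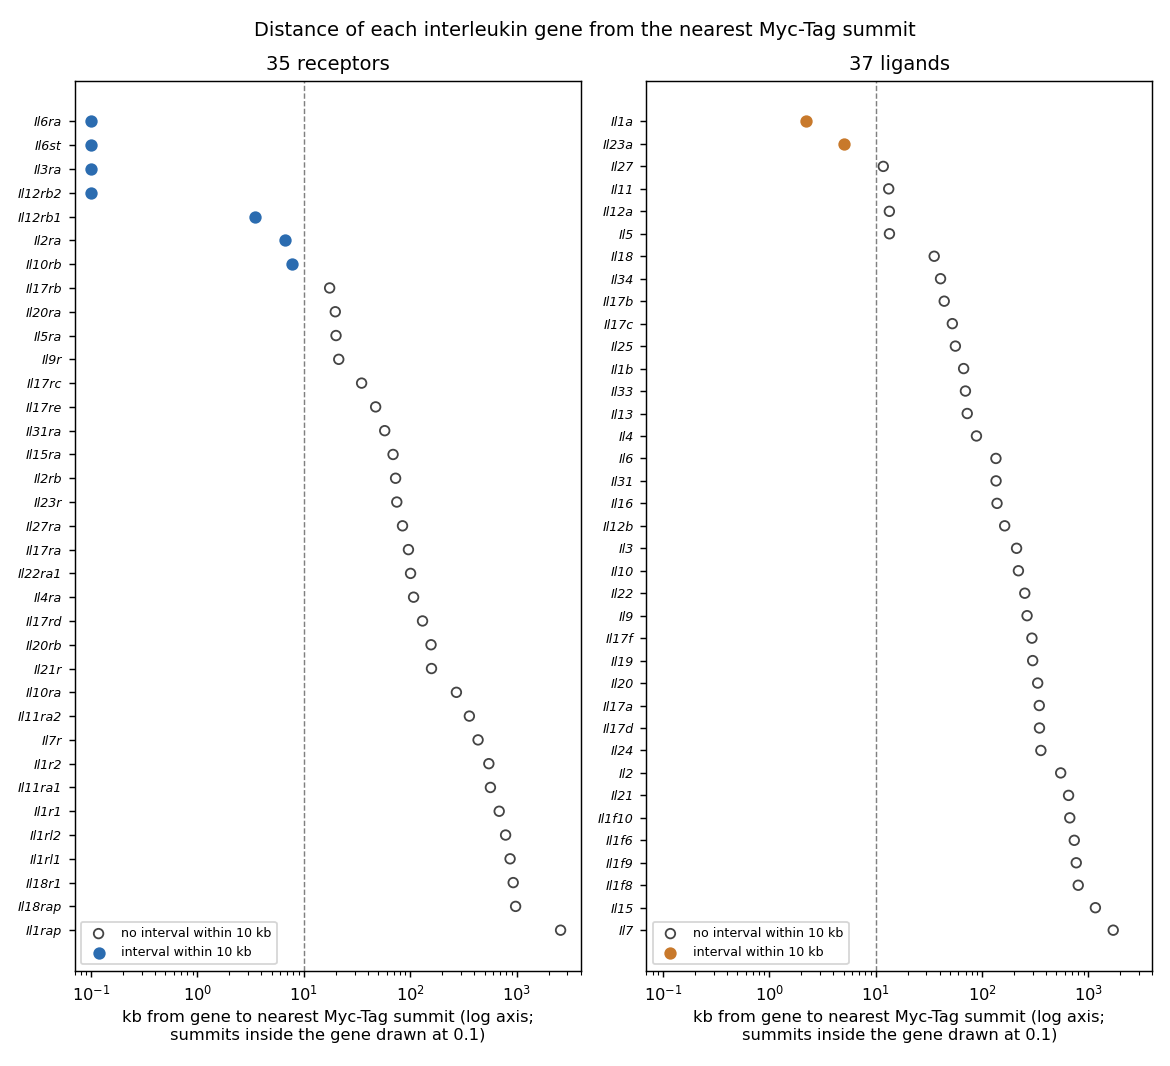
Distance in kb (log axis) from each of 35 receptors and 37 ligands to the nearest Myc-Tag summit, with summits inside the gene drawn at 0.1 kb. Filled points have an interval within 10 kb and the dashed line marks 10 kb. Of the receptors 4 hold a summit, whereas the nearest ligand, Il1a, is 2.20 kb from one.

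Many of the members lie beside relatives. Runs of members less than 150 kb apart comprised 39 of the 78 genes in 14 runs, and 5 of these genes had an interval, as did 5 of the other 39. The share of all autosomal coding genes was 20.1%, and no run was tested against it. The receptor run Il1r2, Il1r1, Il1rl2, Il1rl1, Il18r1 and Il18rap spans chr1:40084692-40551707 and its genes were 549 to 980 kb from a summit. The run of Il1f8, Il1f9, Il1f6, Il1f5, Il1f10 and Il1rn on chromosome 2 was 611 to 802 kb away, and the run of Il24, Il20, Il19 and Il10 on chromosome 1 was 220 to 357 kb away. No gene of these 3 runs had an interval. The T helper 2 cytokines Il4, Il13 and Il5 on chromosome 11 were 13.5 to 88.6 kb from a summit and had none either. In the mixed runs an interval was counted at Il2ra but not Il15ra, at Il6st but not Il31ra, and at Il12rb2 but not Il23r. It was also counted at Il4i1b but not Il4i1, and at Il1a but not Il1b, although the interval counted for Il1a overlapped Ckap2l. Genes of a run share their surroundings, so that they are not independent of each other.

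The sequence before the start was then compared with that of all autosomal coding genes. A promoter was listed for 61 of the 78 members, with 76 windows in all, since some genes have more than 1 start. The median number of CG dinucleotides in the 250 bases was 3 for the members (3 for ligands and 4 for receptors) and 10 for all 20085 windows. Of the members' windows, 52 held at most 4 CG, and 5 held 20 or more. These 5 were those of Il6st, Il3ra and Il4i1b, which an interval overlapped, and those of Il17rb and Il1rap, which did not. No ligand window reached 20. An interval overlapped a window at 3 of the 61 members (4.92%, 1.69 to 13.5%), and at 11.0% of the 16457 autosomal coding genes with a listed promoter.

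Over all autosomal coding promoters, the share under an interval was 0.623% with 0 to 4 CG, 5.03% with 5 to 9, 15.3% with 10 to 19 and 21.1% with 20 or more. The low share of the members' windows goes with their CG content in this sense, and the part of CG content in it was not tested. TAATT or AATTA, searched on both strands with overlaps allowed, stood in 27 of the 76 members' windows (35.5%), in 45.5% of the ligands' windows and in 20% of the receptors'. The share was 22.1% among all 20085 windows and 12.9% among the 2064 under an interval. These sets also differed in their content of the bases G and C. Its median was 46.0% for the ligands' windows, 52.8% for the receptors', 56.0% for all windows and 62.8% for those under an interval. The part of base content in the shares with TAATT or AATTA was not tested.

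**Figure D5:**
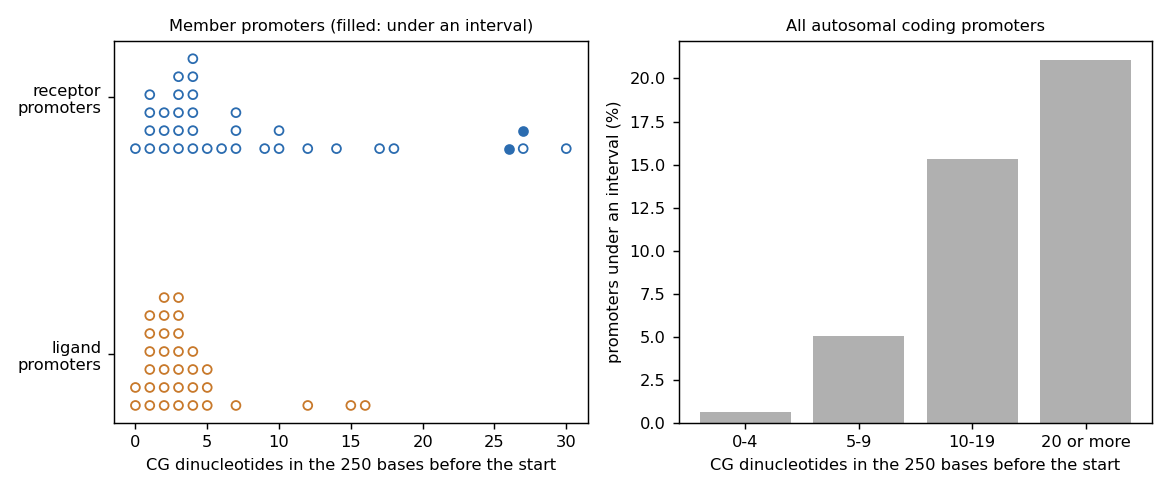
Left, the number of CG dinucleotides in the 250 bases before the start (horizontal axis) for each ligand and receptor window, stacked where equal, with windows under an interval filled. Right, the percentage of all autosomal coding windows under an interval by the same number. The filled windows, of Il6st and Il3ra, hold 26 and 27, and the share over all windows rises from 0.623% to 21.1%.

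Other genes of interleukin signaling, from a list of 41 autosomal genes with other symbols, had an interval at 9 (22.0%), next to the 20.1% of all genes. Among the Stat factors, Stat4 acts downstream of IL-12 and Stat5b downstream of IL-2 and IL-7. Stat4 held summits with heights of 9 and 22 in the gene body, and Stat5b held 1 with a height of 14. Of the Jak kinases 2 of 4 had an interval. Jak1 held 2 summits in the gene body, with heights of 13 and 15. Jak3 had 1 with a height of 14, which lay 4767 bp outside the gene. The Socs inhibitors had 2 of 8, Socs4 (height 18, 2202 bp outside the gene) and Socs7 (height 11, inside the gene). The adaptors and kinases listed for the IL-1 receptor, with Traf3ip2 of the IL-17 receptors among them, had 1 of 7, Irak2 (height 14, 1998 bp outside the gene). Intervals outside Jak3, Socs4 and Irak2 were counted by distance and may lie at another gene. None of the 8 receptor subunits with other symbols, Csf2rb and Lifr among them, had an interval.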

How the data were processed

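The authors deposited, for 1 Myc-Tag ChIP library and 1 input library, the called intervals and the summits with a score, the peak height, whose normalization is not stated. Per the methods, Active Motif made and analyzed the libraries on an Illumina GA II and peaks rest on MACS p-values. The submitters' processing notes name BWA and mm9. The coordinates were read as mm10 (GRCm38), because 2030 of 3477 summits (58.4%) lay within 1 kb of a coding gene end of that assembly. Of the summits, 3329 were multiples of 16 bp. The active regions equal the intervals.

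Genes and promoters were those of RefSeq GRCm38.p6, with intervals counted from 1. The members and lists were chosen with earlier results of these data known, and the receptor families after the values. Every member with an interval was named, and of the others the 5 nearest to a summit and listed T-lineage genes. Python 3.11.15, numpy 2.4.6, pandas 2.3.3, statsmodels 0.14.6 and matplotlib 3.10.9 were used. Simulated intervals were placed only at genes with no other coding gene close by. Searched over 20665 genes, 150 of 150 genes with an interval within 10 kb and 0 of 50 beyond were called. This checks the counting code and not crowded loci. With 1 library per group, no test between conditions was made. Genome sequence beyond promoters was not used here, and values of some genes on the signaling list are not reported here.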

Additional observations from a re-analysis of the deposited data

How the results depend on the processing

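Of 26 comparisons with an alternative, all planned, 12 stayed within 1.5 times the reported count or value and 14 moved beyond it. With 1 kb allowed around a gene, 5 members, 0 ligands and 4 receptors had an interval (15% of all genes), and with 50 kb 24, 9 and 13 (35.1%). When a summit had to reach the median height, 4 members, 0 ligands and 3 receptors remained (11.2% of all genes), and at or above the 75th percentile 1, 0 and 1 (6.40%). The number of members with a summit near an end was 6 within 5 kb and 1 at or above the median height, with no share of all genes to set beside them. These moves follow from wider or stricter definitions. With 1 kb, with 50 kb and at both heights, the share of ligands with an interval was below that of the receptors. A minimum overlap of 50%, leaving out intervals called in the input, leaving out chromosome 15, counting antagonists as ligands or binding proteins as receptors, using genes of any kind as neighbours, and counting every interval once changed no count, and the last gave a median height of 14 in place of 14.5 for the tallest summit per member. No paired analysis was possible because the ChIP and the input are single libraries, and no replicate could be left out. Depth is unknown, so a gene without an interval is one where none was called.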

Other observations

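The X-linked genes of the same names lie outside the rule on autosomes. The 5 are Il2rg, Il13ra1, Il13ra2, Il1rapl1 and Il1rapl2. Of these, 1 had a Myc-Tag interval in its body or within 10 kb, beside 20.1% of all autosomal coding genes. It was Il1rapl1, a relative of the IL-1 receptors known for its role at neuronal synapses. The body of Il1rapl1, chrX:86740937-88115948, is longer than that of any of the 78 members. Il2rg, which encodes the common gamma chain, was 372 kb from the nearest summit. The noncoding gene Il1bos, beside Il1b, was 72.5 kb from one.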
